A study of Bos taurus with 8 samples.

Results

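The matrix genes described here were 10 collagens, proteoglycans and matrix glycoproteins of the rumen papilla: COL1A1, COL1A2, COL3A1, COL4A1, COL17A1, DCN, BGN, LUM, FN1 and SPARC. They were chosen by symbol and not by their signals. A gene was measured where the RefSeq accession of an array probe led to its symbol, and the brightest probe stood for the gene. By this rule 9 of the 10 genes were measured, among 7788 genes named on the array. No probe was matched to COL4A1, a chain of basement membrane collagen, and it was not analysed here.

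The papillae came from 4 ruminally cannulated lactating Holstein cows, all female, in a 2 × 2 crossover of diets with 40% (LC, low-concentrate) and 70% (HC, high-concentrate) concentrate in dry matter. Cows 1 and 2 received LC in period 1 and HC in period 2, and cows 3 and 4 received the diets in the other order, after all had eaten a diet with less concentrate before the trial. Papillae were excised from the ventral sac 4 h after the morning feeding on day 21 of each period, and their RNA was hybridised to 8 single-colour arrays, 1 per cow and diet. The age of the cows was not given in the sources used here. The 4 arrays of a period lay on 1 slide, so a period cannot be told apart from its slide, and each cow had the same position on both slides, so cow and position cannot be told apart. By the scanner software's test, 76.9 to 81.2% of the 21475 probes on an array stood well above background, and 16030 probes did on all 8 arrays, those of the 9 matrix genes among them. The number of arrays limits the precision.

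A rumen papilla is a finger of keratinized stratified epithelium over a core of connective tissue with vessels. The core is held by fibrils of type I and type III collagen, which fibroblasts secrete, and small leucine-rich proteoglycans bind to the fibrils and set their spacing. Fibronectin and SPARC connect fibrils and cells, whereas the transmembrane collagen XVII belongs to the basal keratinocyte, where hemidesmosomes fix the epithelium to the basement membrane. In whole papillae, fewer cells of a type and less RNA per cell cannot be told apart.

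Markers of both layers were present. The keratins KRT14 and KRT15 of basal epithelium had mean log2 signals of 17.97 ± 0.19 and 16.88 ± 0.11 (SD, n = 4) on LC, and the probes of the desmosome gene DSP and the envelope gene IVL were brighter than 99.6% and 99.5% of all probes. The 5 of 9 fibroblast markers with a probe were well above background on all 8 arrays, as were the 7 of 8 of smooth muscle and the 6 of 9 of endothelium. The defining markers that were not well above background on any array were TP63 of basal epithelium, DSC1 of suprabasal epithelium and ITGAM of leukocytes.

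All values below are quantile-normalized log2 signals. The brightness of a probe depends on its sequence as well as on its transcript, so the shares that follow place probes and do not order transcripts. SPARC (RefSeq NM_174464), a collagen-binding glycoprotein, had the brightest of the 9 probes, at a mean of 13.73, and was brighter than 97.4% of all probes on the array. LUM (NM_173934) and COL17A1 (NM_001101980) were each brighter than 92.1%, and DCN (NM_173906), COL1A1 (NM_001034039), COL1A2 (NM_174520), FN1 (NM_001163778), COL3A1 (NM_001076831) and BGN (NM_178318) were brighter than 89.8, 88.9, 88.2, 87.0, 85.2 and 82.4%. The other probe of DCN had a mean of 8.89 and was brighter than 68.3%.

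The spread over the 8 arrays differed among the genes. BGN had the widest range, 9.87 to 11.20, a 2.50-fold span, and its SD of 0.46 was larger than that of 93.0% of the probes measured on all arrays. COL3A1, FN1, COL1A2 and COL1A1 followed with SDs of 0.39, 0.38, 0.36 and 0.36, larger than those of 88.0, 88.0, 85.0 and 85.0% of the probes. SPARC (0.26) and COL17A1 (0.25) lay nearer the median probe, whose SD was 0.20. DCN and LUM varied least, with SDs of 0.15 and 0.17 and fold spans of 1.39 and 1.44.

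**Figure D1:**
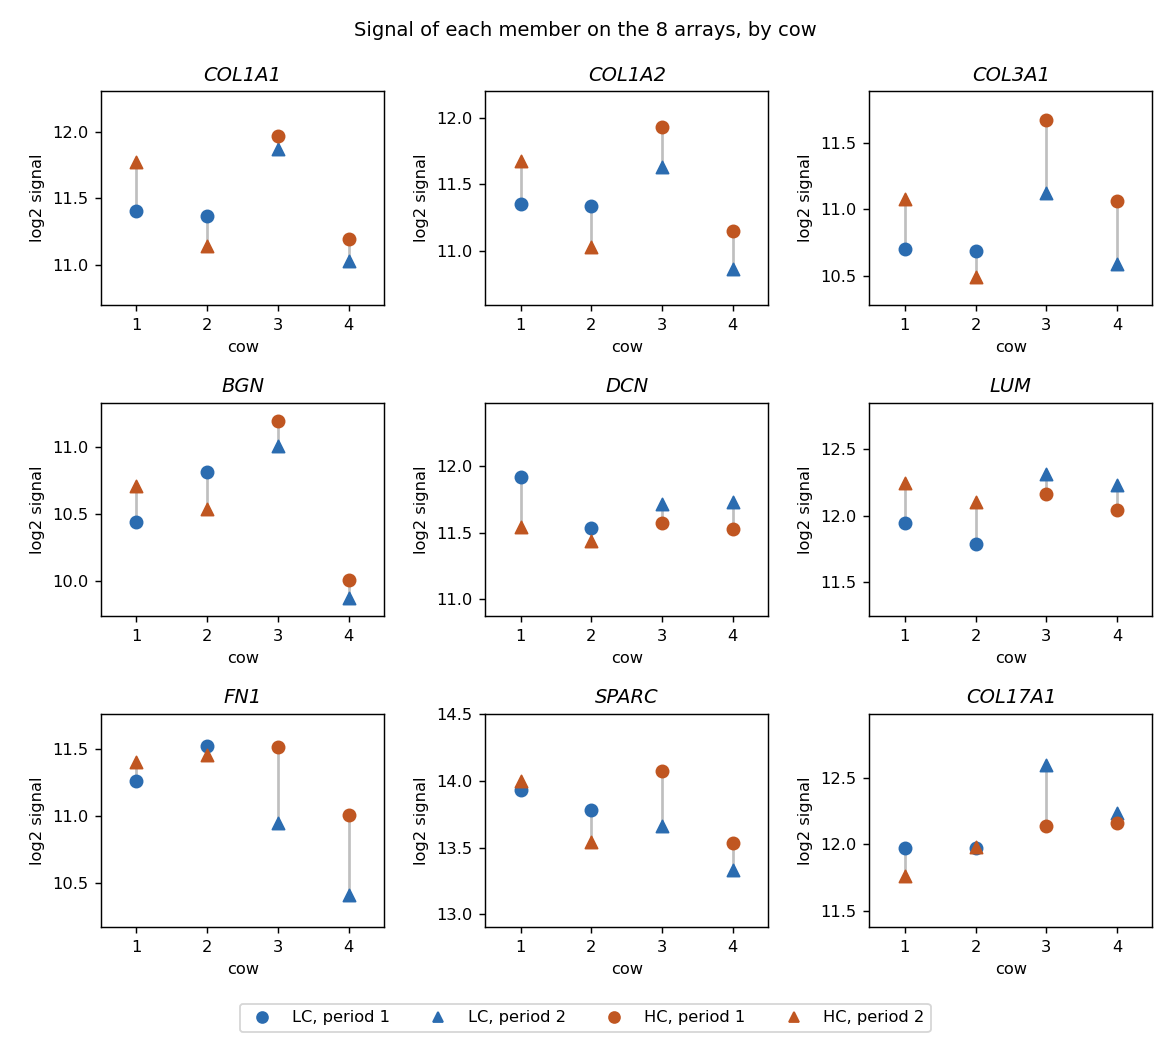
Normalized log2 signal of each of the 9 matrix genes (vertical axis, the same span in every panel) in each cow (horizontal axis), with LC in blue, HC in orange, period 1 as circles and period 2 as triangles, and a grey line joining the 2 arrays of a cow. Both arrays of cow 4 are the lowest of the 8 for BGN (9.87 and 10.01), and LUM is higher in period 2 than in period 1 in every cow.

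The comparison of diets asked whether the matrix genes of the papilla differ between low and high concentrate feeding. None of the 9 genes reached a fold change of 1.5 with an unadjusted P under 0.05 in limma, which 0.922% of all 21475 probes had (106 higher on HC, 92 lower). None of the 9 had an unadjusted P under 0.05 at any fold change, which 3.65% of the probes had, and the smallest was 0.112. Adjusted P values were 1.00 for every gene after rounding. Signals were higher on HC for 7 genes and lower for 2, and the median log2 difference of the 9 genes was 0.10, against 0.00 over all probes. The groups overlapped for each of the 9 genes.

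The fibrillar collagens differed more between cows than between diets. COL1A1, a chain of type I collagen, had signals of 11.41, 11.37, 11.87 and 11.03 in cows 1 to 4 on LC, and of 11.78, 11.15, 11.97 and 11.19 in the same cows on HC. Cow 3 was the highest and cow 4 the lowest on LC, and cow 3 was the highest on HC too. The log2 difference of HC from LC was 0.10 (standard error 0.27, unadjusted P = 0.725 in limma), with a 95% interval of -0.56 to 0.76. COL1A2, the partner chain, ranged from 10.86 to 11.63 on LC and from 11.03 to 11.93 on HC, with a difference of 0.15 (standard error 0.26). COL3A1, the chain of type III collagen, had signals of 10.70, 10.69, 11.12 and 10.59 in cows 1 to 4 on LC and of 11.08, 10.50, 11.67 and 11.07 on HC. It was higher on HC in cows 1, 3 and 4 and lower in cow 2, and its difference of 0.30 (95% interval -0.22 to 0.82, unadjusted P = 0.205 in limma) was the second largest among the 9 genes. A 1.5-fold difference in favour of HC lay inside the intervals of these 3 collagens. With cow as a replicate block, which takes the differences between cows out of the error, the intervals were -0.25 to 0.45 for COL1A1, -0.20 to 0.51 for COL1A2 and -0.04 to 0.64 for COL3A1, and that size lay inside the interval of COL3A1 and outside those of the other two.

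Of the small leucine-rich proteoglycans, DCN (decorin) was the gene with lower signals on HC in all 4 cows. Its brightest probe gave 11.92, 11.54, 11.71 and 11.73 in cows 1 to 4 on LC and 11.54, 11.44, 11.57 and 11.52 on HC. The HC values lay within a narrow band at the lower end of the LC values, and cow 2 on LC fell inside that band. The log2 difference was -0.20 (standard error 0.11, unadjusted P = 0.112 in limma), and a two-sided exact permutation test of the 8 arrays gave P = 0.0857, where 0.0286 is the smallest possible. That test moves arrays freely between the diets and ignores the pairing by cow, so neither value measures what 4 paired cows can show. The other DCN probe gave another picture: its difference was 0.03 (standard error 0.11), HC exceeded LC in 2 of 4 cows, and its Pearson r with the brightest probe over the 8 arrays was 0.15.

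LUM (lumican), which shapes collagen fibrils, had signals of 11.95, 11.79, 12.31 and 12.23 on LC and of 12.25, 12.11, 12.17 and 12.04 on HC in cows 1 to 4. The HC values lay inside the range of the LC values, and the difference was 0.07 (95% interval -0.15 to 0.30). BGN (biglycan) had signals of 10.44, 10.81, 11.01 and 9.87 on LC and of 10.71, 10.54, 11.20 and 10.01 on HC. Cow 3 was the highest and cow 4 the lowest on either diet, and the difference between diets was 0.08 (standard error 0.35), with the widest interval of the 9 genes, -0.76 to 0.92. With cow as a replicate block the interval was -0.25 to 0.41.

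FN1 (fibronectin), the glycoprotein on which cells and collagen assemble, had signals of 11.27, 11.52, 10.95 and 10.41 on LC and of 11.40, 11.45, 11.51 and 11.01 on HC in cows 1 to 4. HC exceeded LC by 0.57 and 0.60 in cows 3 and 4, whereas HC minus LC was 0.14 and -0.07 in cows 1 and 2. Its log2 difference of 0.31 (standard error 0.17) was the largest of the 9 genes, a 1.24-fold change, with an unadjusted P of 0.124 in limma. With cow as a replicate block, the unadjusted P was 0.0212 and the adjusted P was 0.843, and the 95% interval was 0.07 to 0.55, short of 1.5-fold. SPARC had signals of 13.33 to 13.93 on LC and 13.54 to 14.07 on HC, with a difference of 0.11 (standard error 0.18).

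COL17A1, the collagen of the hemidesmosome, had signals of 11.97, 11.97, 12.60 and 12.24 on LC and of 11.76, 11.98, 12.14 and 12.16 on HC in cows 1 to 4. The highest value was that of cow 3 on LC, and the groups overlapped. The difference was -0.18 (standard error 0.11, unadjusted P = 0.157 in limma), and it was lower on HC in 3 of 4 cows. For COL17A1, DCN, LUM and SPARC the whole 95% interval of the diet difference lay within 1.5-fold in either direction. For the other 5 genes it did not, and with cow as a replicate block it did for 8 of the 9 genes, all except COL3A1.

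**Figure D2:**
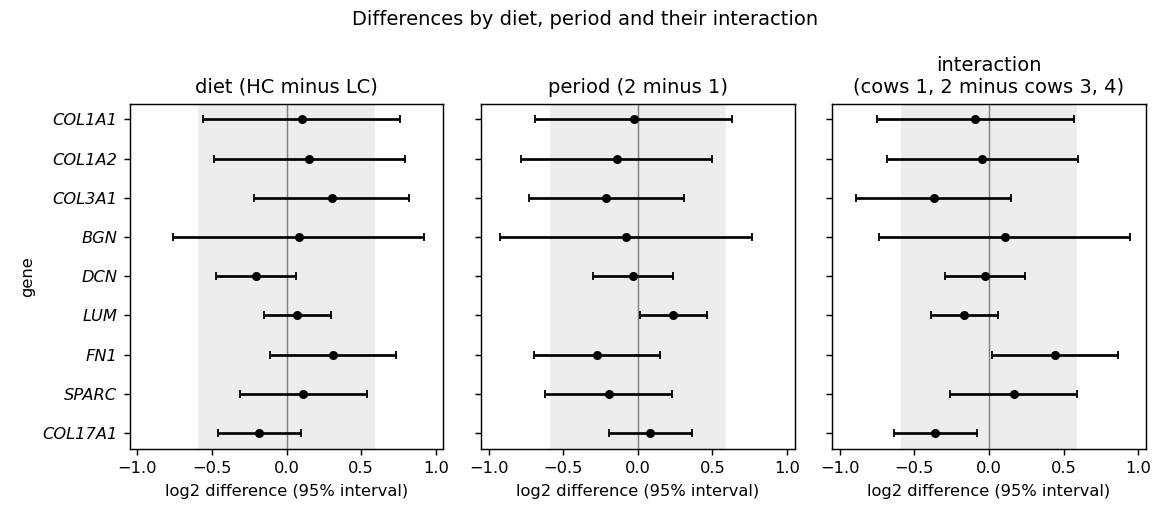
Log2 differences of the 9 matrix genes (points) with 95% intervals (bars) for diet, period and their interaction, from the limma fit over all probes. The grey band spans a 1.5-fold change in either direction, and no point lies outside it. The intervals of LUM for period and of FN1 and COL17A1 for the interaction leave out 0. Those of the interaction count the 2 arrays of a cow as independent.

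Between periods, which share their slides, none of the 9 genes passed both thresholds, and 3.86% of all probes did. LUM was the 1 gene of the 9 with an unadjusted P under 0.05, which 12.3% of the probes had. In period 1 its signals were 11.95, 11.79, 12.17 and 12.04 in cows 1 to 4, and in period 2 they were 12.25, 12.11, 12.31 and 12.23. It was higher in period 2 in all 4 cows, by 0.24 on the log2 scale (standard error 0.09, unadjusted P = 0.0419, adjusted P = 0.381 in limma), and the ranges of the periods overlapped. The exact permutation test, which ignores the pairing by cow, gave P = 0.0571. Without 7 of the 8 arrays in turn, all except that of cow 3 on HC, the unadjusted P was above the threshold, up to 0.132, while the difference stayed between 0.20 and 0.28. Signals were lower in period 2 for 7 of the 9 genes, and the median log2 difference was -0.08, against 0.02 over all probes. FN1 and COL3A1 had differences of -0.27 and -0.21 (unadjusted P = 0.164 and 0.36 in limma), and with cow as a replicate block the unadjusted P of FN1 was 0.0315.

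In this crossover the interaction of diet and period is the difference of cows 1 and 2 from cows 3 and 4. The main limma fit has no term for cow. For this contrast it counts the 2 arrays of a cow as independent, although the contrast rests on 4 cows. None of the 9 genes passed both thresholds for it, against 2.93% of all probes, and 2 genes had an unadjusted P under 0.05, against 10.2% of the probes. COL17A1 was lower in cows 1 and 2, whose means were 11.87 and 11.98, than in cows 3 and 4, whose means were 12.37 and 12.20. The difference was -0.36 (standard error 0.11, unadjusted P = 0.019, adjusted P = 0.423 in limma). In limma on the 4 cow means, the unadjusted P was 0.0437 and the adjusted P was 0.817. FN1 was higher in cows 1 and 2, with means of 11.33 and 11.49, than in cows 3 and 4, with means of 11.23 and 10.71. Its difference was 0.44 (standard error 0.17, unadjusted P = 0.0431, adjusted P = 0.477 in limma). In limma on the cow means, the unadjusted P was 0.107 and the adjusted P was 0.817. As each array was left out, the unadjusted P of FN1 stayed under 0.05 without either array of cow 3 and lay above it without any array of cows 1, 2 and 4, up to 0.124. That of COL17A1 lay above 0.05 without the arrays of cow 1 on LC or HC or of cow 2 on LC, up to 0.0625, and under it without any other.

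The cow was the largest source of the spread for 7 of the 9 genes. Of the sum of squares over the 8 arrays, 93.2% lay between cows for BGN, 87.6% for COL1A1, 79.3% for COL1A2, 70.6% for SPARC, 69.5% for COL17A1, 66.0% for COL3A1 and 65.8% for FN1. The median over all measured probes was 52.9%, with 3 degrees of freedom for cow against 1 for diet. LUM and DCN differed from this. Between periods lay 53.6% of the sum of squares for LUM, and between diets 50.4% for the brightest DCN probe. For the other DCN probe, 1.28% lay between diets, 42.6% between periods and 34.1% between cows.

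**Figure D3:**
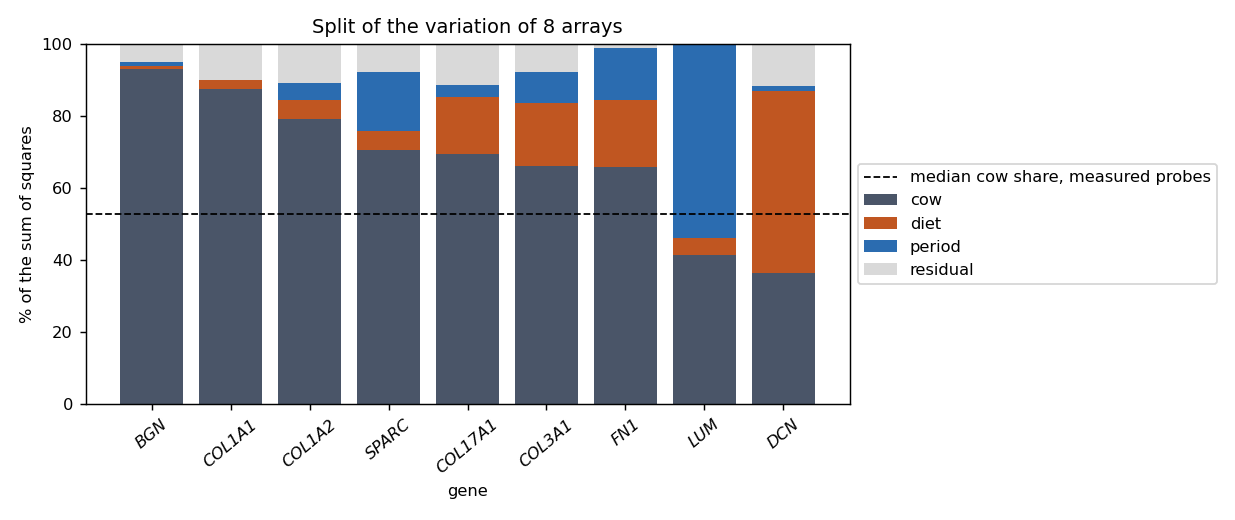
Share of the sum of squares over the 8 arrays (vertical axis, percent) that lay between cows, between diets, between periods and in the residual, for each of the 9 matrix genes (horizontal axis). The dashed line is the median cow share of the probes measured on all arrays, 52.9%, and the cow share of LUM and DCN lies under it.

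The test of cows was added after the signals had been seen to follow the cow. In a limma fit of diet, period and cow, the F-test of cow gave an unadjusted P under 0.05 for 5 of the 9 genes, against 16.3% of all probes: BGN (0.00912), FN1 (0.00982), COL1A1 (0.032), COL3A1 (0.037) and COL1A2 (0.0422). Their adjusted P values were 0.197 to 0.292, so none passed the adjustment, which 34 probes did. The count rested on single animals. It was 0 without the LC array of cow 4 and 0 without its HC array, 2 without either array of cow 3, and 4 or 5 without any other array. These 5 genes were measured on the same 8 arrays, so they are not 5 separate observations. COL1A1, COL1A2, COL3A1 and BGN had a Pearson r of 0.58 to 0.98 with one another. FN1 followed them less, with an r of 0.24 with COL3A1 to 0.67 with BGN.

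Cows 3 and 4 were singled out after the values were seen. They had the highest and the lowest mean of the 4 cows for BGN, COL1A1 and COL1A2, whereas the lowest mean of COL3A1 was that of cow 2 and the highest of FN1 that of cow 2. BGN was higher in cow 3 than in cow 4 by 1.13 on LC and 1.19 on HC, COL1A1 by 0.84 and 0.78, COL1A2 by 0.77 and 0.78, COL3A1 by 0.53 and 0.61 and FN1 by 0.54 and 0.50. The same sign appeared in period 1 and period 2, since the LC arrays of both cows were from period 2 and the HC arrays from period 1. In all, 7 of the 9 genes were higher in cow 3 on both diets and none was lower on both, whereas 29.7% of the measured probes were higher on both and 29.9% lower. LUM differed by 0.08 and 0.13, whereas DCN and COL17A1 changed sign between the diets.

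The markers of other cells did not all follow the same cows. Of the 5 measured fibroblast markers, 4 were higher in cow 3 than in cow 4 on both diets: THY1 (by 0.66 and 0.48), FAP (0.51 and 0.64), PDGFRA (0.28 and 0.49) and TCF21 (0.19 and 0.57). For VIM, the brightest of them, cow 3 minus cow 4 was -0.15 and -0.25. The log2 of the summed fibroblast marker signal was 13.03, 13.04, 12.80 and 12.84 in cows 1 to 4. Signals were summed before the log, so VIM made up most of that sum: its mean on LC was 12.63, against 9.70 for THY1, the next brightest. Of the other lists, smooth muscle had 4 of 7 markers higher and 2 lower in cow 3 on both diets, endothelium 2 of 6 higher and 3 lower, leukocytes 0 of 4 higher and 1 lower, suprabasal epithelium 1 of 5 higher and 3 lower, basal epithelium 1 of 2 higher and 1 lower, and erythrocytes 1 of 3 higher and none lower. In suprabasal epithelium, cow 3 minus cow 4 was -2.25 on LC and -2.65 on HC for DSG1, and 0.34 and 1.25 for CDSN. The summed signals of basal epithelium were 18.49, 18.53, 18.40 and 18.60 in cows 1 to 4. Those of suprabasal epithelium were 17.79, 17.67, 17.55 and 17.76, and those of smooth muscle were 14.61, 14.68, 14.57 and 14.35. Between diets, the summed fibroblast signal ranged from 12.82 to 13.26 on LC and from 12.77 to 13.07 on HC. The part of cell makeup in the values of the matrix genes was not tested.

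Over the 8 arrays, which hold 2 arrays per cow and are not independent, the genes fell into unlike patterns. COL1A1 and COL1A2, whose products assemble into type I collagen, had a Pearson r of 0.98. COL1A1 had an r of 0.86 with BGN, 0.81 with COL3A1 and 0.77 with SPARC, and FN1 had an r of 0.74 with SPARC and 0.67 with BGN. By its brightest probe, DCN stood apart from the fibrillar collagens, with an r of 0.05 with COL1A1 and -0.11 with COL3A1. LUM had an r of 0.37 with COL1A1 and -0.43 with FN1. COL17A1, the 1 gene of the 9 that belongs to the epithelium, had an r of 0.15 with COL1A1, -0.43 with SPARC and -0.57 with FN1.

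**Figure D4:**
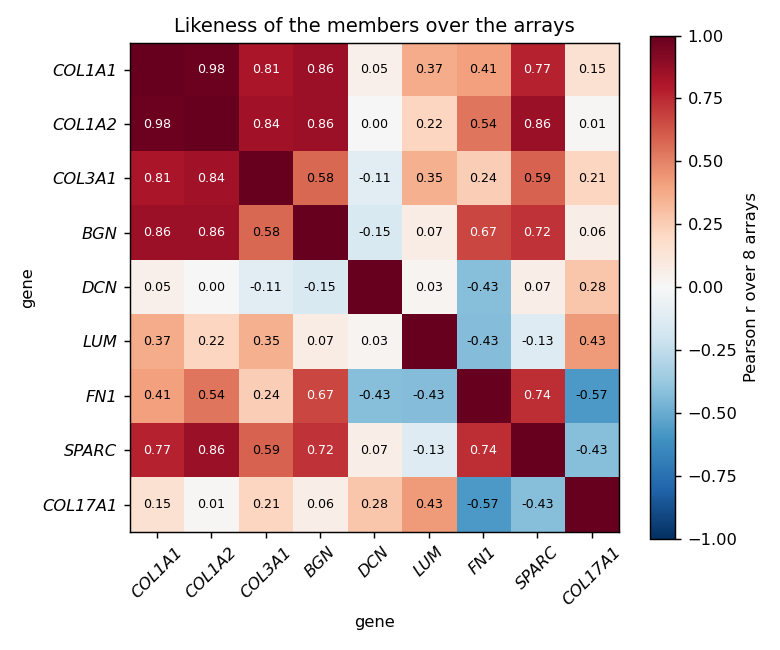
Pearson r between each pair of the 9 matrix genes over the 8 arrays (colour and printed value, 2 arrays per cow). COL1A1, COL1A2, COL3A1, BGN and SPARC have r from 0.58 to 0.98 with one another, and DCN has r from -0.43 to 0.28 with the other genes.

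Genes with a like pattern were then sought among 6460 named genes measured on all arrays. The first pattern was the mean of the standardized signals of COL1A1, COL1A2, COL3A1, DCN, LUM and SPARC. It held DCN, whose brightest probe stood apart from the fibrillar collagens, and left out FN1 and BGN. With COL1A1, BGN had an r of 0.86 and FN1 one of 0.41. So that mean is not one of the patterns found among the matrix genes. Against this mean, the highest r over the 8 arrays was that of F7 (0.98), the coagulation factor VII. It was followed by PCBP2 (0.96), IPO7 (0.96), FSTL1 (0.95), a secreted relative of SPARC, CCDC124 (0.95), FXYD5 (0.94), H19 (0.94), an imprinted noncoding RNA, MYL6B (0.94), ADAMTS2 (0.93), which removes the N-propeptide of procollagens, and CADM3 (0.93). Since the genes were picked for following that mean, which was itself higher in cow 3 than in cow 4, the sign of this pair of cows was largely set by the choice. Cow 3 exceeded cow 4 by 1.70 on LC and 1.97 on HC for F7 and by 0.80 and 0.69 for ADAMTS2. The ADAMTS2 probe was dim, brighter than 21.8% of all probes, though well above background on all 8 arrays. For COL17A1 the most like genes were DHRS4 (0.95), TWF1 (0.95), FAAP24 (0.94), CORO2A (0.94) and ARHGEF12 (0.94). With 8 arrays, 19 genes reached an r of 0.90 with the first pattern and 17 with COL17A1.

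Of the enzymes and chaperones that make and cross-link collagen, 15 of 21 listed genes had a probe and 14 were measured on all arrays. None passed both thresholds for diet or period, and their median log2 differences were 0.04 and -0.08. TGM2, transglutaminase 2, was higher on HC in all 4 cows, by 0.16, 0.62, 0.40 and 0.55. Its diet difference of 0.43 (standard error 0.14, unadjusted P = 0.0185, adjusted P = 0.9995 in limma) fell short of 1.5-fold. With cow as a replicate block its unadjusted P was 0.0171. For the interaction TGM2 passed both thresholds: its mean was 10.78 in cows 1 and 2 and 10.05 in cows 3 and 4, a difference of 0.73 (standard error 0.14, unadjusted P = 0.0015, adjusted P = 0.291 in limma). That call was kept without each of the 8 arrays in turn, and the unadjusted P on the cow means was 0.00754. In the F-test of cow, 7 of the 14 had an unadjusted P under 0.05, against 16.3% of all probes, among them the prolyl hydroxylase P4HA1, the collagen chaperone SERPINH1, ADAMTS2 and LOXL4, which oxidizes lysines for cross-links. In all, 10 of the 14 were higher in cow 3 than in cow 4 on both diets and 2 were lower, against 29.7% and 29.9% of the measured probes. SERPINH1 was higher by 0.66 and 0.45 and LOXL4 by 1.07 and 1.33. In the lists below, the counts higher and lower were 2 and 1 of 4 other collagens and 10 and 2 of 17 other proteoglycans and matrix glycoproteins. They were 4 and 0 of 6 for basement membrane and hemidesmosome, 0 and 0 of 4 for matrix receptors and 2 and 2 of 7 for TGF-beta signalling. All these genes share the same arrays, and this pair of cows was picked after the values were seen.

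Of 20 other collagens, 6 had a probe, 4 were measured on all arrays, and none passed both thresholds for diet, period or interaction. The largest differences were those of COL10A1, a network-forming collagen, by -0.45 between periods (unadjusted P = 0.00287 in limma, short of 1.5-fold), COL6A1 of the beaded filaments, by -0.33 between periods, and COL15A1, by 0.18 between diets. COL8A1 and COL11A1 were not well above background on any array.

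Of 39 other proteoglycans and matrix glycoproteins, 21 had a probe and 17 were measured on all arrays. For diet, 1 passed both thresholds: CCN1, a matricellular protein that binds integrins, had a mean of 7.92 ± 0.55 on LC and 8.60 ± 0.31 on HC (SD, n = 4). Its difference was 0.68 (standard error 0.23, unadjusted P = 0.0238, adjusted P = 1.00 in limma), HC exceeded LC in 3 of 4 cows, and as arrays were left out the call was kept without that of cow 3 on LC or cow 1 on HC and lost without any of the other 6. MGP did not pass for diet, since its difference of 0.44 (standard error 0.16) fell short of 1.5-fold. In limma its unadjusted P was 0.0295 and its adjusted P was 0.9995. MGP was higher on HC in all 4 cows, by 0.46, 0.59, 0.41 and 0.30. With cow as a replicate block its unadjusted P was 0.00535. For period, 5 passed, all lower in period 2, against 3.86% of all probes, of which 234 were higher and 594 lower. EPYC and ACAN, proteoglycans known from cartilage, differed by -1.08 and -0.68, with means of 5.36 and 5.24 in period 1 and 4.28 and 4.56 in period 2, and both calls were kept without each array in turn. TNXB, tenascin X, differed by -0.62, and its call was lost without any array of cows 1 and 4, but kept without any of cows 2 and 3. The other 2 were dim, namely MFAP5, well above background on 5 of 8 arrays, and VTN, on none, which also passed for the interaction. Their calls for period were kept in 2 and 3 of the 8 fits that left out an array. MFAP5, a microfibril glycoprotein, had a diet difference of 0.87 (standard error 0.41) and was not called. Its unadjusted P was 0.0757 and its adjusted P was 0.9995 in limma. With cow as a replicate block, an alternative fit, its unadjusted P was 0.00328, past both thresholds there. HC minus LC was -0.48, 0.22, 1.99 and 1.74 in cows 1 to 4. The adjusted P values of EPYC, ACAN and TNXB were 0.26, 0.122 and 0.299 in limma.

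Of 14 genes of the basement membrane and hemidesmosome, 6 had a probe and none passed both thresholds. LAMB3, a chain of the laminin that anchors the epithelium, differed by -0.35 between diets, the integrin chain ITGB4 by 0.28 and the linker NID1 by 0.21 (unadjusted P = 0.127, 0.217 and 0.441 in limma). Of 14 matrix receptors, 5 had a probe and none passed. The collagen receptor DDR2 differed by 0.25 between periods, and the integrin chains ITGAV and ITGA5 by -0.19 between diets and -0.15 between periods. Of 12 genes of TGF-beta signalling, a pathway known to drive collagen synthesis, 7 had a probe and none passed. TGFB1 differed by -0.23 and its receptor TGFBR1 by 0.19 between diets, and TGFB3 by -0.16 between periods.

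Of the cell type lists, those of fibroblasts, endothelium, smooth muscle, leukocytes and basal epithelium had no gene past both thresholds for diet, period or interaction. Their largest differences in diet or period were those of TCF21 (0.32, period), FAP (0.25, period) and PDGFRA (0.25, period) for fibroblasts, EMCN (0.30, diet), CLDN5 (-0.19, period) and ESAM (0.19, diet) for endothelium, DES (-0.35, period), TAGLN (0.19, period) and MYH11 (0.15, period) for smooth muscle, CD3E (0.50, period), CD14 (0.31, diet) and CD68 (0.17, period) for leukocytes, and KRT14 (-0.16, period) and KRT15 (0.04, period) for basal epithelium. In suprabasal epithelium CDSN, the corneodesmosome protein, passed for the interaction, with a mean of 9.49 in cows 1 and 2 and 8.31 in cows 3 and 4. Its unadjusted P in limma on the cow means was 0.0149. Among the erythrocyte markers ALAS2, well above background on 2 of 8 arrays, passed for period.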

How the data were processed

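RNA of rumen papillae was measured on 8 single-colour Agilent bovine arrays, 4 per diet, with diet, cow and period taken from the labels. Per array, the authors deposited background-subtracted intensity values from Feature Extraction 10.7.3.1, not normalized between arrays, and a table of quantile-normalized log2 values, used as an alternative. Control and outlier spots were left out. Log2 intensities were quantile-normalized between arrays and the spots of a probe averaged (limma 3.58.1, R 4.3.3). No dim probe was removed. Probes were named by RefSeq accession through a gene table of ARS-UCD2.0, which named 8297 of 10176 such probes. The array annotation is of another build, so no positions are given. No probe or transcript sequences were used here.

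The limma model of all 21475 probes had diet, period and their interaction (4 residual and 2.26 prior degrees of freedom). A gene was called where its fold change reached 1.5 with an unadjusted P under 0.05, as in the study's methods, and Benjamini-Hochberg adjustment ran over all probes. Exact two-sided permutation tests moved arrays between groups without regard to cow. They used scipy 1.17.1, tables pandas 2.3.3 and figures matplotlib 3.10.9. The fits were tested on simulated data.

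The genes and lists were chosen with earlier results of these data known. Named genes were the matrix genes; in each list the genes called, or else the 3 with the largest diet or period difference; the 10 most like the mean of 6 matrix genes, and the 5 most like COL17A1. Others (markers, MGP and genes of the cow comparison) were named after their values were seen. Pairing by cow comes from the labels. Deviations from the diet mean correlated between the 2 arrays of a cow, r = 0.285, 0.298, 0.467 and 0.113 in cows 1 to 4 over 16030 probes. Between an LC and an HC array of different cows, r was -0.237 to 0.185. The highest, of cow 1 on LC with cow 4 on HC, exceeded that of cow 4 with itself.

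The alternatives were scaling to the 75th percentile, normexp background correction with an offset of 50 (on median spot signals, since the files used hold no mean spot signal), the deposited table, leaving out probes well above background on fewer than 4 arrays, the mean of all probes of a gene, a linear model without moderation, cow as a block, other model terms, and each array left out in turn.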

Additional observations from a re-analysis of the deposited data

Results flagged for a closer look

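LUM was noted because its HC minus LC difference had opposite signs in the 2 pairs of cows. The log2 difference was 0.30 and 0.32 in cows 1 and 2, with a mean of 0.31, and -0.14 and -0.19 in cows 3 and 4, with a mean of -0.17. Cows 1 and 2 received HC in period 2 and cows 3 and 4 received it in period 1, so this contrast is the period difference, which had an unadjusted P of 0.0419 and an adjusted P of 0.381 in limma. Among 18 sets of 4 arrays, 9 genes on 2 diets, no array lay far from the other 3 by Dixon's test at its 95% critical value.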

How the results depend on the processing

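The number of matrix genes past both thresholds was 0 for diet, for period and for the interaction under every alternative tried, with cow as a replicate block (0 for diet and 0 for period) and without each array in turn (0 to 0). The block cannot be fitted to the interaction, which lies between cows. No gene had an adjusted P under 0.05 for these contrasts in any of these fits, and the smallest was 0.200. Counted by unadjusted P alone, which was added after seeing the data, the 9 genes gave 0 to 1 for diet, 0 to 2 for period and 0 to 3 for the interaction. LUM for period had an unadjusted P of 0.0688 with 75th percentile scaling, and FN1 for the interaction had one of 0.0868 without moderation. The number with an unadjusted P under 0.05 in the F-test of cow was 5 to 7 over 4 alternatives and 0 to 5 as each array was left out.

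The direction of the diet difference was kept in all fits for 5 of 9 genes (COL3A1, COL17A1, DCN, LUM and FN1). As each array was left out, it ranged from -0.22 to 0.38 for BGN, from -0.11 to 0.31 for COL1A1, from -0.041 to 0.35 for COL1A2 and from -0.022 to 0.25 for SPARC. For period the range was -0.38 to 0.22 for BGN, -0.0059 to 0.17 for COL17A1, -0.24 to 0.18 for COL1A1, -0.34 to 0.051 for COL1A2 and -0.13 to 0.062 for DCN. For the interaction it was -0.19 to 0.40 for BGN, -0.30 to 0.12 for COL1A1, -0.24 to 0.15 for COL1A2 and -0.12 to 0.067 for DCN. The interaction also turned for COL1A2 with normexp (0.0031) and for DCN with the mean of its 2 probes (0.042). The cause was not tested. In the table of normalized values, what is named cow 1 matched the scanner output of cow 2 and the reverse, on LC and on HC, which leaves diet, period and pairing as they are and puts the names of these 2 cows in doubt.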
